A study of Homo sapiens with 9 samples.

Results

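Vimentin and a set of mesenchymal and stromal genes were followed in Hec50 cells given a miR-200c mimic, a scrambled negative control, or mock transfection alone. The set names 38 genes. Its members are the probe sets whose only gene symbol in the platform's probe annotation is a listed gene, 122 of the 54613 probe sets tested, and they cover 37 of the 38 genes. PMP22 was not analysed here. For 4 further probe sets the annotation gives a member together with another gene, and these were left out by the rule.

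Hec50 is an established line of aggressive human endometrial cancer. Gene expression was measured on 9 Affymetrix arrays, 3 of cells given the miR-200c mimic, 3 of cells given the scrambled control and 3 of mock transfected cells. Mimic and scrambled RNA were each used at 60 nM for 48 h, and the labels give no time for mock. The study asked which genes miR-200c governs in an aggressive cancer. All 3 groups share the line and the medium. No label names separate cultures behind the replicates. The p-values therefore rest on the spread among these arrays, and that spread may be technical.

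Vimentin is the intermediate filament of mesenchymal cells, and carcinoma cells that have lost epithelial traits often make it, together with matrix proteins, contractile proteins and surface receptors usual in fibroblasts. miR-200c belongs to the miR-200 family, plentiful in epithelia, which lowers the repressors ZEB1 and ZEB2 through sites in their mRNA. These repressors bind E-boxes in promoters of epithelial genes, and cells with much ZEB1 tend to carry a mesenchymal programme.

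The small RNA under test is shown with its family, because bases 2 to 8 from the 5′ end, the seed, set which sites a microRNA can pair with. The mature human sequences are RefSeq's on GRCh38.p14, with the seed in capitals. The labels do not name the arm that the mimic copies, and the 3p arms are shown here.
hsa-miR-200c-3p (chr12:6963742-6963764, plus strand): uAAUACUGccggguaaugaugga
hsa-miR-200b-3p (chr1:1167160-1167181, plus strand): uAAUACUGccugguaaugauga
hsa-miR-200a-3p (chr1:1167916-1167937, plus strand): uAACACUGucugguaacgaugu
hsa-miR-141-3p (chr12:6964155-6964176, plus strand): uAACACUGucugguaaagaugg
miR-200c and miR-200b share the seed AAUACUG, and miR-200a and miR-141 share AACACUG.

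The authors' values are log2 expression with the median of each probe set over the 9 arrays set to 0. They show differences between arrays and carry no level. Only a level class was recovered from the rounding of the stored numbers. By class, the medians of 39 member probe sets (32%) were 8 or higher (log2), those of 62 (50.8%) were between 4 and 8, and those of 21 (17.2%) were lower than 4. Over all probe sets these shares were 28.07%, 54.82% and 17.08%. Pairs of replicate arrays differed over the member probe sets with an SD of 0.135 to 0.221. A probe set was called changed at a Benjamini-Hochberg adjusted p under 0.05 in limma, adjusted over all 54613 probe sets. Over the members, the standard error of such a difference had a median of 0.0748.

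The scrambled control was given at the dose of the mimic. Against it, 8 genes had 1 or more probe sets that were lower with the mimic, by 1.17-fold to 1.50-fold. They were vimentin, the lysyl oxidase LOX, fibrillin 1, follistatin-like 1, protease nexin SERPINE2, endoglin, smooth muscle actin ACTA2 and the adaptor DAB2. Each of them also had a probe set that did not pass. A probe set of each of NT5E, FBLN1, NID2 and LOXL2 was higher. Of the 122 member probe sets, 9 fell (7.38%), where 4.15% of all probe sets fell. A further 5 rose (4.1%), where 4.52% of all probe sets rose. The other 108 did not pass, and the median difference over the 122 was -0.03, beside -0.01 over all probe sets. The rise is near the background share. Leaving out scrambled replicate 1 lowered the count that fell to 4 of 122, where 3.06% of all probe sets fell. The fall was then near the background share too. Leaving out mimic replicate 3 lowered the count that rose to 3, where 3.53% of all probe sets rose.

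On 1 value per gene, the mean of its probe sets in its highest level class, 8 of 37 genes fell with the mimic against the scrambled control (21.6%), where 7.05% of all 19775 genes fell. These were VIM, DAB2, ACTA2, LOX, FBN1, VCAN, SERPINE2 and ENG. LOXL2 and NID2 rose, 2 of 37 genes, where 7.6% of all genes rose. The gene values of VIM, DAB2, ACTA2, SERPINE2, ENG, LOXL2 and NID2 are each those of 1 probe set. Their calls by gene and by probe set differ through the fitted spread and the adjustment, and are not separate measurements. Leaving out scrambled replicate 1 lowered the count of genes that fell to 4, where 5.59% of all genes fell. The mean over all probe sets of a gene gave 5, where 5.8% of all genes fell. With that mean, DAB2, ACTA2, ENG and LOXL2 did not pass (adjusted p of 0.0696, 0.187, 0.51 and 0.1 in limma). With each array left out in turn, VIM, SERPINE2, ENG, LOXL2 and NID2 kept their calls. DAB2 lost it without scrambled replicate 1 or 3 or mimic replicate 1 or 2 (adjusted p up to 0.0971), and ACTA2 without scrambled replicate 1 or mimic replicate 3 (up to 0.0721). LOX lost it without mock replicate 1, any scrambled array or mimic replicate 2 or 3 (up to 0.137), and FBN1 without mock replicate 1 or 2, scrambled replicate 1 or 2 or any mimic array (up to 0.143). VCAN lost it without scrambled replicate 2 or 3 or mimic replicate 2 (up to 0.0594). FSTL1, VCAN, NT5E and FBLN1 stood on different sides of the call by probe set and by gene. For NT5E and FBLN1, with probe sets that rose, the gene values differed by 0.03 (adjusted p = 0.82 in limma) and 0.04 (adjusted p = 0.696). The gene value of FSTL1 differed by -0.17 (adjusted p = 0.204 in limma), and that of VCAN by -0.18 (adjusted p = 0.0182 in limma).

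**Figure D1:**
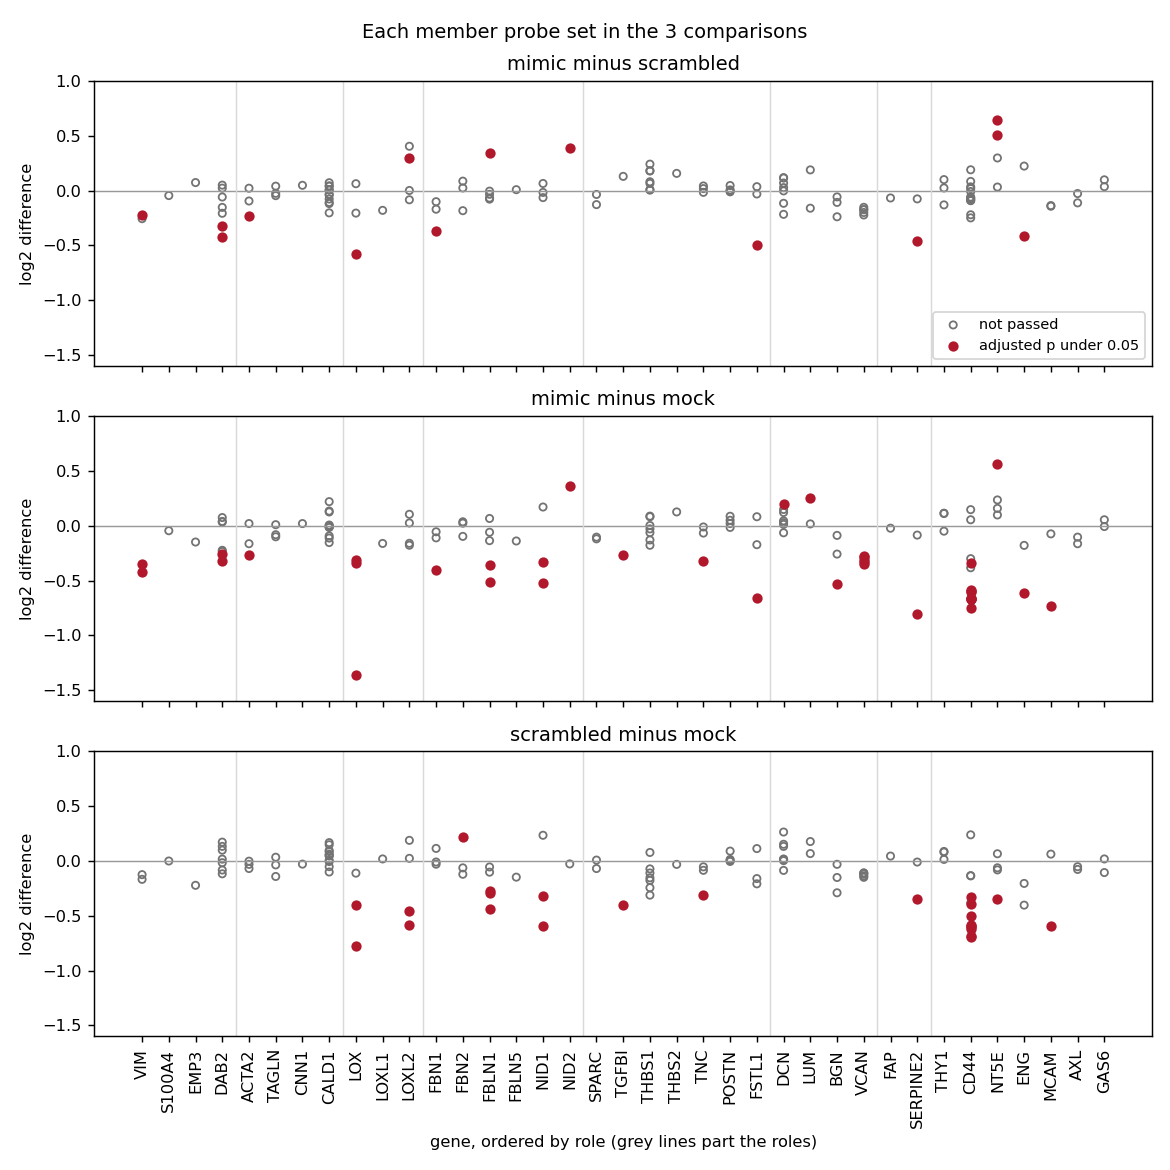
Log2 differences of all 122 member probe sets, by gene, for the mimic against the scrambled control, the mimic against mock and the scrambled control against mock; each point is a probe set, and filled points have an adjusted p under 0.05 in limma. CD44, VCAN, MCAM and LOX lie to the low side against mock, while most genes lie about 0 against the scrambled control.

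Among filament, membrane and adaptor genes, VIM has a pair of probe sets. The higher-level one, 201426_s_at, read -0.18, -0.28 and -0.22 in the mimic arrays, 0.02, 0.00 and -0.01 in the scrambled arrays, and 0.13, 0.11 and 0.14 in the mock arrays. The groups lay apart in steps, with the mimic lowest, the scrambled control in the middle and mock highest. VIM fell by 0.23 with the mimic against the scrambled control (SE 0.05, adjusted p = 0.0165 in limma), a fold of 1.17. Against mock it fell by 0.35 with the mimic (SE 0.05, adjusted p = 0.00121), a fold of 1.27. The step between the scrambled control and mock, -0.12, did not pass (adjusted p = 0.199). Without scrambled replicate 1 the VIM difference from the scrambled control had an adjusted p of 0.0583, and without mimic replicate 2 of 0.0562. The lower-level VIM probe set, 1555938_x_at, read -0.14, -0.20 and -0.49 in mimic, 0.00, -0.09 and 0.03 in scrambled, and 0.11, 0.21 and 0.12 in mock arrays. It passed against mock alone, with -0.42 (SE 0.09, adjusted p = 0.00929 in limma), and its difference from the scrambled control was -0.26 (SE 0.09, adjusted p = 0.104).

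DAB2, an endocytic adaptor that also acts in TGF-beta signalling, has 7 probe sets. Its probe set 201279_s_at read -0.13, -0.38 and -0.21 in mimic, 0.24, 0.18 and 0.13 in scrambled, and -0.02, 0.05 and 0.00 in mock arrays. The mimic arrays lay below both other groups, and scrambled lay above mock. It fell by 0.43 against the scrambled control (SE 0.07, adjusted p = 0.00296 in limma) and by 0.25 against mock (adjusted p = 0.036). The call against mock was lost under 8 alternatives, among them the fits without mock replicate 1, 2 or 3 and without mimic replicate 2 or 3, where the adjusted p was 0.0706 to 0.119.

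A further DAB2 probe set, 201278_at, read 0.00, -0.32 and -0.28 in mimic, 0.16, 0.14 and 0.07 in scrambled, and 0.07, 0.00 and 0.00 in mock arrays. Mimic and scrambled arrays lay apart, and mimic replicate 1 reached the mock arrays. It fell by 0.32 against the scrambled control (SE 0.08, adjusted p = 0.0308 in limma). That call was lost without any one of the 3 scrambled arrays, without mimic replicate 2 or 3 and without mock replicate 2, with an adjusted p of up to 0.107. At a high level class, 210757_x_at fell by 0.32 against mock (adjusted p = 0.00567 in limma). Its difference from the scrambled control, -0.21, did not pass (adjusted p = 0.0608). The same values are the DAB2 gene value, called over all genes (adjusted p = 0.0265 in limma). S100A4, a calcium-binding protein used as a fibroblast marker, differed by -0.05 between mimic and scrambled control and by -0.04 between mimic and mock. EMP3, a small membrane protein of the PMP22 family, had no called probe set. As a gene it fell in the scrambled control against mock, by 0.22 (adjusted p = 0.0281 over all genes in limma), a call lost without any one mock array or scrambled replicate 1 or 2 (adjusted p up to 0.0896).

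The contractile genes gave a single change. ACTA2, smooth muscle actin, read -0.19, -0.16 and -0.32 in mimic, 0.07, 0.00 and -0.05 in scrambled, and 0.02, 0.00 and 0.10 in mock arrays at probe set 200974_at. The mimic arrays lay below the other 6, whose values overlapped. ACTA2 fell by 0.23 against the scrambled control (SE 0.06, adjusted p = 0.0426 in limma) and by 0.26 against mock (adjusted p = 0.0193). The first call was lost in 12 of 16 alternatives, among them the fits without any one of the scrambled or mimic arrays and without mock replicate 1 or 2, where the adjusted p was 0.0546 to 0.143. The second was lost without mock replicate 3 (adjusted p = 0.0662) and without mimic replicate 3 (adjusted p = 0.0735). The other ACTA2 probe sets, 2 of 3, were not called. TAGLN, CNN1 and CALD1, which bind actin and mark smooth muscle, had no called probe set in any comparison.

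LOX and its relatives oxidise lysines to cross-link collagen and elastin. LOX probe set 215446_s_at read -0.33, -0.49 and -0.76 in mimic, 0.18, 0.00 and -0.02 in scrambled, and 0.94, 0.62 and 0.93 in mock arrays. The 3 groups lay apart, with the mimic lowest and mock highest. It fell by 0.58 with the mimic against the scrambled control (SE 0.12, adjusted p = 0.011 in limma), a fold of 1.50. The fall against mock was 1.36 with the mimic (SE 0.12, adjusted p = 5.92e-05), 2.56-fold, and 0.77 with the scrambled control (SE 0.12, adjusted p = 0.00754), 1.71-fold. Without scrambled replicate 1 the difference between mimic and scrambled control was -0.52 (adjusted p = 0.0507). The other LOX probe sets were not called in that comparison, at 0.06 for 204298_s_at and -0.21 for 213640_s_at, and both fell against mock with the mimic, by 0.34 and 0.32. The call of 204298_s_at was lost without mock replicate 1 or 3, scrambled replicate 1 or 2 or mimic replicate 2 or 3 (adjusted p up to 0.148). That of 213640_s_at was lost without mock replicate 1 or 3, scrambled replicate 3 or mimic replicate 1 or 3 (up to 0.133).

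LOXL2 moved the other way between the small RNAs. Its probe set 202998_s_at read 0.10, -0.11 and 0.00 in mimic, -0.34, -0.22 and -0.35 in scrambled, and 0.19, 0.09 and 0.19 in mock arrays. The scrambled arrays lay below both other groups, and mimic and mock overlapped. LOXL2 was higher by 0.30 with the mimic against the scrambled control (SE 0.07, adjusted p = 0.0186 in limma) and fell by 0.46 in the scrambled control against mock (SE 0.07, adjusted p = 0.00632). The rise was lost without scrambled replicate 1 or 3 and without mimic replicate 1 or 3, where the adjusted p was 0.0567 to 0.0697.

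Probe set 202997_s_at of LOXL2 read 0.09, -0.08 and 0.00 in mimic, -0.58, -0.54 and -0.09 in scrambled, and 0.09, 0.13 and 0.32 in mock arrays. Scrambled replicate 3 lay near the mimic arrays and apart from the other scrambled arrays. The scrambled control fell by 0.58 against mock (SE 0.12, adjusted p = 0.0256 in limma). Without any one of the 3 mock arrays or scrambled replicate 1 or 2 that call was lost, with an adjusted p of 0.0616 to 0.0853. The difference between mimic and scrambled control, 0.40, did not pass (adjusted p = 0.0642), and it passed without scrambled replicate 3 (0.56, adjusted p = 0.00362). LOXL1 was in the class below 4 and had no call.

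Among microfibril, elastic fibre and basement membrane genes, fibrillin 1, FBN1, forms the microfibrils of elastic tissue. Its probe set 202766_s_at read -0.34, -0.23 and -0.30 in mimic, 0.20, 0.11 and -0.06 in scrambled, and 0.00, 0.04 and 0.29 in mock arrays. Mimic arrays lay below all others. FBN1 fell by 0.37 against the scrambled control (SE 0.09, adjusted p = 0.0235 in limma) and by 0.40 against mock (adjusted p = 0.0132). The first call was lost without scrambled replicate 1 or 2 and without mimic replicate 1 or 3, with an adjusted p of 0.0698 to 0.0929. The other FBN1 probe sets, 2 of 3, were not called in any comparison.

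Fibulin 1, FBLN1, a glycoprotein of basement membranes and elastic fibres, has 5 probe sets, and they did not move together. Its probe set 202995_s_at read -0.02, -0.19 and -0.17 in mimic, 0.00, 0.00 and -0.14 in scrambled, and 0.31, 0.34 and 0.52 in mock arrays. Both small RNA groups overlapped and lay below mock. It fell against mock by 0.51 with the mimic (SE 0.08, adjusted p = 0.00149 in limma) and by 0.44 with the scrambled control (adjusted p = 0.013), and the call for the scrambled control ended without scrambled replicate 3 (adjusted p = 0.0509). FBLN1 207835_at read 0.09, 0.06 and 0.03 in mimic, -0.36, -0.29 and -0.20 in scrambled, and 0.00, 0.02 and -0.03 in mock arrays. Here the scrambled arrays alone were low. This probe set rose by 0.34 with the mimic against the scrambled control (SE 0.06, adjusted p = 0.00324 in limma). Its fall of 0.27 in the scrambled control against mock (adjusted p = 0.0252) was lost in 8 alternatives, among them the fits without mock replicate 1, 2 or 3 and without scrambled replicate 1 or 2, with an adjusted p of up to 0.0932.

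The nidogens link laminin to collagen IV in basement membranes, and NID1 and NID2 differed. NID1 202008_s_at read 0.00, -0.18 and -0.02 in mimic, -0.16, 0.00 and -0.22 in scrambled, and 0.39, 0.47 and 0.52 in mock arrays. The small RNA groups overlapped, and every mock array was higher. This probe set fell against mock by 0.52 with the mimic (SE 0.07, adjusted p = 0.00126 in limma) and by 0.59 with the scrambled control (SE 0.07, adjusted p = 0.00336). It differed by 0.07 between mimic and scrambled control (adjusted p = 0.691). NID1 202007_at also fell against mock, by 0.33 with the mimic (adjusted p = 0.0174) and 0.32 with the scrambled control (adjusted p = 0.048). The call for the mimic was lost in 5 of 16 alternatives, among them the fits without mock replicate 2 or 3 or mimic replicate 1 or 2. Over the alternatives its adjusted p reached 0.124. The call for the scrambled control was lost in 11 of 16, with an adjusted p of up to 0.138. Among these were the fits without any one mock or mimic array or scrambled replicate 1 or 3. NID1 1561082_at differed from mock by 0.17 and 0.24, upward, and did not pass (adjusted p = 0.293 and 0.194). NID2 204114_at read 0.26, 0.23 and 0.36 in mimic, -0.02, -0.17 and -0.12 in scrambled, and -0.27, 0.04 and 0.00 in mock arrays. The mimic arrays were highest, and scrambled and mock arrays overlapped. NID2 rose by 0.39 against the scrambled control (SE 0.08, adjusted p = 0.0162 in limma) and by 0.36 against mock (SE 0.08, adjusted p = 0.0186). The first NID2 call was lost without scrambled replicate 2 or 3 or mimic replicate 3, with an adjusted p of 0.0551 to 0.0644, and the second without mimic replicate 3 (adjusted p = 0.0708). FBN2 was in the class below 4, and its probe set 1554737_at rose in the scrambled control against mock by 0.22 (adjusted p = 0.0417 in limma), a call lost in every fit without 1 array. FBLN5 had no call.

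Among the matricellular genes, whose secreted products tune how cells hold the matrix, FSTL1 stood out. Its probe set 208782_at read -0.57, -0.51 and -0.43 in mimic, 0.07, 0.00 and -0.07 in scrambled, and 0.17, 0.03 and 0.28 in mock arrays. All mimic arrays lay below the other 6, and scrambled and mock overlapped. FSTL1 fell by 0.50 against the scrambled control (SE 0.07, adjusted p = 0.00169 in limma), 1.42-fold, and by 0.66 against mock (SE 0.07, adjusted p = 0.000276), 1.58-fold. The remaining FSTL1 probe sets differed by -0.03 and 0.04 between mimic and scrambled control. TGFBI, a secreted protein induced by TGF-beta, read 0.09, -0.16 and 0.00 in mimic, -0.15, -0.14 and -0.16 in scrambled, and 0.24, 0.21 and 0.30 in mock arrays. It fell against mock by 0.27 with the mimic (adjusted p = 0.0229 in limma) and by 0.40 with the scrambled control (adjusted p = 0.0109). The TGFBI call for the mimic ended without any one mock array or mimic replicate 2 or 3 (adjusted p up to 0.074). Tenascin C, TNC, had 1 of its 3 probe sets lower than mock in both, 216005_at, by 0.32 with the mimic (adjusted p = 0.0135 in limma) and by 0.31 with the scrambled control (adjusted p = 0.04). The TNC call for the scrambled control ended without any one of the 9 arrays (adjusted p up to 0.127), and that for the mimic without mock replicate 1 (0.0546). SPARC, THBS1, THBS2 and POSTN had no called probe set.

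The proteoglycans included VCAN, the large hyaluronan-binding proteoglycan versican, whose 5 probe sets all fell with the mimic against mock, by 0.27 to 0.35. Between mimic and scrambled control the VCAN probe sets differed by -0.22 to -0.15 and none passed in limma, though all 5 had an unadjusted p under 0.05 and in all 5 the mimic arrays lay below the scrambled arrays. Between scrambled control and mock they differed by -0.15 to -0.11, and none passed, with 2 at an unadjusted p under 0.05. Biglycan, BGN, a small leucine-rich proteoglycan, read -0.18, 0.00 and -0.44 in mimic, 0.00, 0.23 and -0.14 in scrambled, and 0.42, 0.12 and 0.42 in mock arrays at 201262_s_at. The mimic arrays lay below mock, and the scrambled arrays overlapped both. BGN fell by 0.53 with the mimic against mock (SE 0.13, adjusted p = 0.0221 in limma). That call was lost without mock replicate 1 or 3 and without mimic replicate 1 or 3, with an adjusted p of 0.0514 to 0.0837. The other BGN probe sets, 2 of 3, were not called. The related proteoglycans decorin and lumican each had a probe set that rose against mock with the mimic, DCN 240556_at by 0.20 (adjusted p = 0.0277 in limma) and LUM 201744_s_at by 0.26 (adjusted p = 0.043). The DCN call ended without mock replicate 2 or 3 or mimic replicate 2 or 3 (adjusted p up to 0.0967). The LUM call ended without mock replicate 1 or 3, scrambled replicate 1 or 3 or any mimic array (up to 0.14).

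SERPINE2, a secreted inhibitor of thrombin and urokinase, stepped down through the groups at 1 of its 2 probe sets. That one, 212190_at, read -0.41, -0.56 and -0.48 in mimic, 0.00, -0.07 and 0.00 in scrambled, and 0.25, 0.31 and 0.41 in mock arrays. No arrays of different groups overlapped. SERPINE2 fell by 0.46 with the mimic against the scrambled control (SE 0.06, adjusted p = 0.000936 in limma), 1.38-fold, and by 0.80 against mock (SE 0.06, adjusted p = 2.71e-05), 1.75-fold. In the scrambled control it fell by 0.34 against mock (SE 0.06, adjusted p = 0.0151), a call lost without mock replicate 2 (adjusted p = 0.0534) or scrambled replicate 2 (adjusted p = 0.0512). The other SERPINE2 probe set, 227487_s_at, differed by -0.08 from the scrambled control and by -0.08 from mock with the mimic, and by -0.01 between scrambled control and mock, and none passed (adjusted p = 0.693, 0.616 and 0.969 in limma). FAP, the fibroblast activation protease, differed by -0.07 between mimic and scrambled control and had no call.

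Of the surface receptors, CD44, the hyaluronan receptor, has the most probe sets of the set, 13. CD44 212014_x_at read 0.00, -0.20 and -0.13 in mimic, -0.08, -0.11 and 0.04 in scrambled, and 0.59, 0.61 and 0.71 in mock arrays. Both small RNA groups overlapped far below mock. It fell against mock by 0.75 with the mimic (SE 0.07, adjusted p = 8.32e-05 in limma), 1.68-fold, and by 0.69 with the scrambled control (SE 0.07, adjusted p = 0.00132), 1.61-fold. The difference between mimic and scrambled control was -0.06 (95% interval -0.21 to 0.09, adjusted p = 0.699). Over the 13 probe sets the median difference was -0.07 between mimic and scrambled control (-0.25 to 0.19), -0.59 between mimic and mock (-0.75 to 0.15) and -0.51 between scrambled control and mock (-0.69 to 0.24). None of the 13 was called between mimic and scrambled control in limma, and 1 had an unadjusted p under 0.05.

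The array values of the other CD44 probe sets past 0.5 ran alike. CD44 1557905_s_at read 0.00, -0.20 and -0.10 in mimic, -0.11, 0.00 and 0.04 in scrambled, and 0.56, 0.57 and 0.57 in mock arrays. At 204489_s_at the mimic arrays read -0.03, -0.15 and -0.12, the scrambled arrays 0.00, -0.05 and 0.02, and the mock arrays 0.55, 0.39 and 0.55. In both, every mock array was above all 6 small RNA arrays.
CD44 204490_s_at gave 0.00, -0.01 and -0.15 in mimic, -0.01, -0.07 and 0.15 in scrambled, and 0.55, 0.59 and 0.68 in mock arrays. Values of 209835_x_at were -0.04, -0.03 and -0.13 in mimic, 0.00, 0.00 and 0.01 in scrambled, and 0.51, 0.57 and 0.73 in mock arrays. Again mock alone was high, although the 3 mimic arrays of 209835_x_at lay just under the 3 scrambled ones.
For 210916_s_at they were 0.00, -0.08 and -0.17 in mimic, -0.11, -0.26 and 0.05 in scrambled, and 0.48, 0.61 and 0.67 in mock arrays. For 217523_at they were 0.00, -0.01 and -0.31 in mimic, -0.10, -0.35 and 0.04 in scrambled, and 0.42, 0.44 and 0.57 in mock arrays. The small RNA groups overlapped in both.
Finally, CD44 212063_at read -0.25, -0.27 and -0.17 in mimic, 0.00, -0.09 and 0.07 in scrambled, and 0.33, 0.35 and 0.46 in mock arrays, and here mimic lay below scrambled and scrambled below mock. That difference between mimic and scrambled control, -0.22, did not pass (adjusted p = 0.0575 in limma), and it passed without scrambled replicate 2 (-0.26, adjusted p = 0.0477).

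MCAM, an adhesion molecule of the immunoglobulin family, read -0.05, -0.16 and -0.15 in mimic, 0.00, 0.06 and 0.00 in scrambled, and 0.60, 0.58 and 0.65 in mock arrays at 209087_x_at. The groups lay apart, with a small step from mimic to scrambled and a large one to mock. MCAM fell against mock by 0.73 with the mimic (SE 0.05, adjusted p = 2.15e-05 in limma), 1.66-fold, and by 0.59 with the scrambled control (SE 0.05, adjusted p = 9e-04), 1.51-fold. Between mimic and scrambled control it differed by -0.14 (95% interval -0.26 to -0.02, adjusted p = 0.148). The other MCAM probe set, 1568191_at, was not called.

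Endoglin, ENG, a TGF-beta co-receptor, read -0.24, -0.53 and -0.34 in mimic, 0.00, 0.12 and 0.00 in scrambled, and 0.29, 0.22 and 0.22 in mock arrays at 201809_s_at. Mimic was lowest and mock highest, with no overlap. ENG fell by 0.41 with the mimic against the scrambled control (SE 0.08, adjusted p = 0.00634 in limma), 1.33-fold, and by 0.61 against mock (SE 0.08, adjusted p = 0.000502), 1.53-fold. The scrambled control differed from mock by -0.20 (adjusted p = 0.167). A second ENG probe set, 201808_s_at, differed by 0.22 between mimic and scrambled control and did not pass (adjusted p = 0.47).

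NT5E, the ecto-enzyme CD73 that makes adenosine outside the cell, held the largest called rise of the members between mimic and scrambled control. Probe set 1553994_at read 0.71, 0.57 and 0.49 in mimic, -0.05, -0.05 and -0.06 in scrambled, and 0.00, -0.02 and 0.11 in mock arrays. The mimic arrays lay far above the other 6. It rose by 0.64 against the scrambled control (SE 0.07, adjusted p = 0.00017 in limma), 1.56-fold, and by 0.56 against mock (SE 0.07, adjusted p = 0.000375), 1.48-fold.
NT5E 227486_at read 0.32, 0.00 and 0.19 in mimic, -0.38, -0.31 and -0.33 in scrambled, and 0.03, -0.03 and 0.03 in mock arrays. Here the scrambled arrays were low, and mimic overlapped mock. It rose by 0.51 against the scrambled control (SE 0.08, adjusted p = 0.0018 in limma) and differed by 0.16 from mock (adjusted p = 0.226). The scrambled control fell by 0.35 against mock (adjusted p = 0.0312), a call lost in the fits without any one of the mock or scrambled arrays or without mimic replicate 3, with an adjusted p of 0.0503 to 0.0984. NT5E 203939_at, the probe set in the highest level class, differed by 0.03 and 0.10 from scrambled control and mock and was not called. THY1, AXL and GAS6, which are a fibroblast surface protein, a receptor kinase and its ligand, had no called probe set.

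**Figure D2:**
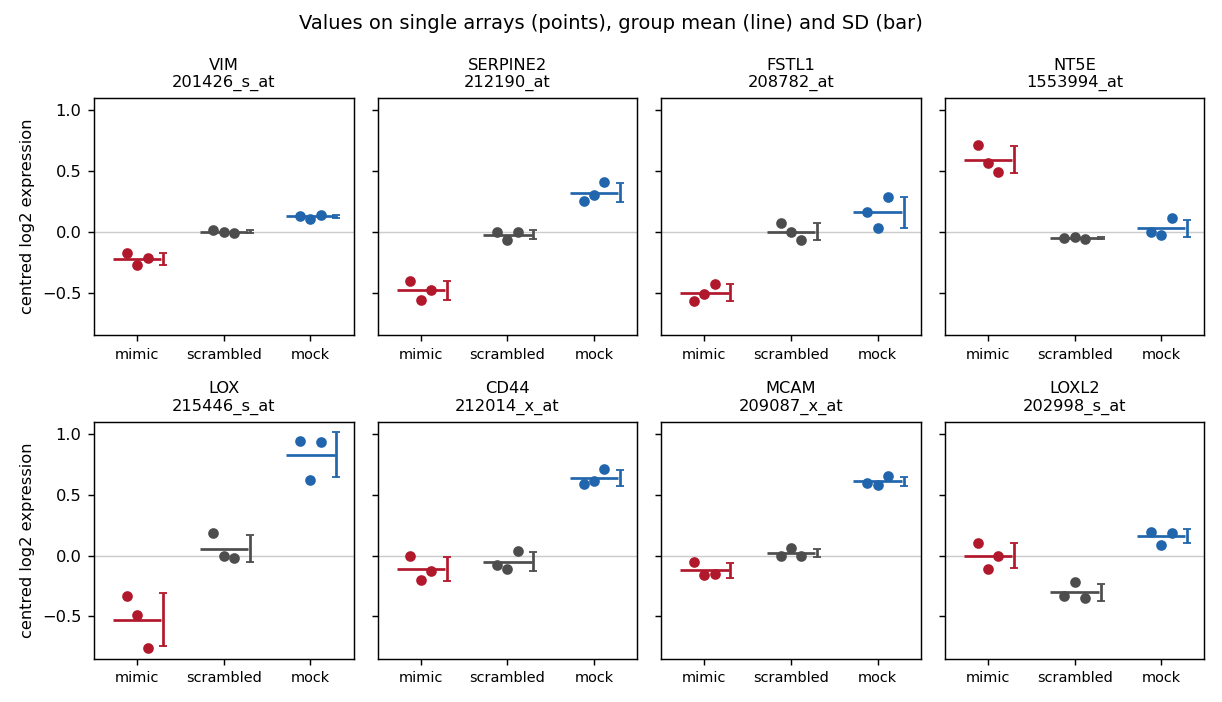
Centred log2 values in the 9 arrays for 8 probe sets, by group, with mimic at the left, then scrambled control, then mock; points are arrays, and bars give the mean and SD of 3 arrays. VIM, SERPINE2 and LOX step up from mimic to mock, CD44 and MCAM are high in mock alone, FSTL1 is low and NT5E high in the mimic alone, and LOXL2 is low in the scrambled control.

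Against mock, which received no small RNA by its label, 34 of the 122 member probe sets fell with the mimic (27.9%), where 6.98% of all probe sets fell. Another 4 rose (3.28%), where 5.07% of all rose. The median difference over the members was -0.09, beside 0.01 over all probe sets. By gene, 14 of 37 fell (37.8%), where 10.3% of all genes fell, and 2 rose, where 8.43% of all genes rose. The 14 were VIM, DAB2, ACTA2, LOX, FBLN1, NID1, TGFBI, FSTL1, BGN, VCAN, SERPINE2, CD44, ENG and MCAM, and the 2 were NID2 and LUM. With the mean over all probe sets of a gene, DAB2 (adjusted p = 0.121 in limma), ACTA2 (adjusted p = 0.066) and LUM (adjusted p = 0.138) did not pass. With 1 array left out, FSTL1 lost its call without any mock array, scrambled replicate 1 or 2 or mimic replicate 1 or 2 (adjusted p up to 0.157 in limma), LUM without mock or mimic replicate 1 (up to 0.0762), and BGN without mock replicate 1 or 3 or mimic replicate 3 (up to 0.061). Largest in size among genes were SERPINE2 at -0.80, LOX at -0.67, CD44 at -0.65 and ENG at -0.61.

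The scrambled control itself differed from mock in the same direction for many members. Of the 122 probe sets, 23 fell (18.9%), where 2.84% of all probe sets fell, and 1 rose (0.82%), where 1.23% rose. Their median difference was -0.07, beside 0.01 over all probe sets. By gene 9 of 37 fell (24.3%), where 5.27% of all genes fell, and none rose in limma (0 also at an unadjusted p under 0.05), where 2.81% of all genes rose. These were EMP3, LOX, LOXL2, FBLN1, NID1, TGFBI, SERPINE2, CD44 and MCAM. With the mean over all probe sets of a gene, SERPINE2 (adjusted p = 0.111 in limma) and LOXL2 (adjusted p = 0.0515) did not pass. Leaving out 1 array gave 14 to 21 probe sets that fell, with 15, 14 and 15 without mock replicate 1, 2 and 3 and 15 without scrambled replicate 1. Of all probe sets, 1.26%, 1.06% and 1.51% fell without those mock arrays and 1.34% without scrambled replicate 1. Among the genes, NID1 lost its call without any mock array or scrambled replicate 1 or 3 (adjusted p up to 0.0782 in limma), and MCAM without any mock array or scrambled replicate 2 or 3 (up to 0.0698).

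Both comparisons with mock use the same 3 mock arrays, so a deviation of those arrays would enter both. A total of 19 probe sets of 8 genes were lower than mock with the mimic and also with the scrambled control: LOX, FBLN1, NID1, TGFBI, TNC, SERPINE2, CD44 and MCAM. Of these, 17 probe sets of 7 genes did not pass between mimic and scrambled control, and SERPINE2 and 1 LOX probe set did. Leaving out 1 array in turn gave 12 to 17 probe sets lower in both, with the 12 without mock replicate 2. The share of all probe sets lower in both was not counted. With all arrays it is at most the 2.84% lower in the scrambled control against mock. No background was counted for the 17 that did not pass or for the fits without 1 array. CD44 supplied 9 of the 19, and its probe sets share 1 gene's RNA. Without CD44, 25 of 109 member probe sets fell with the mimic against mock (22.9%), where 6.98% of all probe sets fell. With the scrambled control against mock 14 of 109 fell (12.8%), where 2.84% of all fell. Between mimic and scrambled control 9 of 109 fell (8.26%), where 4.15% of all fell.

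A measure of RNA or labelling quality set the mock arrays apart for ACTB, while the groups overlapped for GAPDH. On the array's control probe sets for ACTB, the 3′ end minus the 5′ end, in centred values, was 0.016 ± 0.084 in mimic, 0.099 ± 0.036 in scrambled and -0.176 ± 0.027 in mock arrays (SD, n = 3 each). For GAPDH it was -0.015 ± 0.035 in mimic, 0.007 ± 0.023 in scrambled and 0.027 ± 0.035 in mock arrays. The part of the ACTB difference in the results against mock was not tested.

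**Figure D3:**
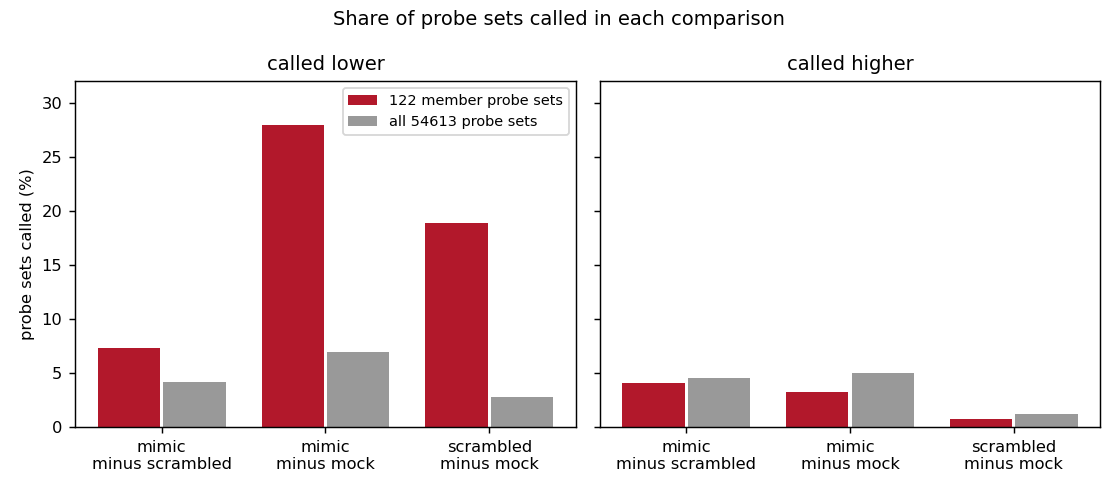
Percent of probe sets called lower and called higher in each comparison, for the 122 members beside all 54613 probe sets. Members lower than mock make up 27.9% with the mimic and 18.9% with the scrambled control, against 6.98% and 2.84% of all probe sets.

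The members' calls were also counted by level class. Among members in the class of 8 or more, 21 of 39 fell with the mimic against mock (53.8%), where 13.6% of all probe sets of that class fell, and 15 of 39 fell with the scrambled control against mock (38.5%), where 5.98% fell. Between mimic and scrambled control 3 of 39 fell (7.69%), where 8.27% of that class fell. In the class from 4 to 8, 13 of 62 fell with the mimic against mock (21%) and 6 of 62 with the mimic against the scrambled control (9.68%), where 5.68% and 3.2% of the class fell. None of the 21 members below 4 fell in any comparison in limma, and 1 was lower at an unadjusted p under 0.05, between mimic and scrambled control.

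**Figure D4:**
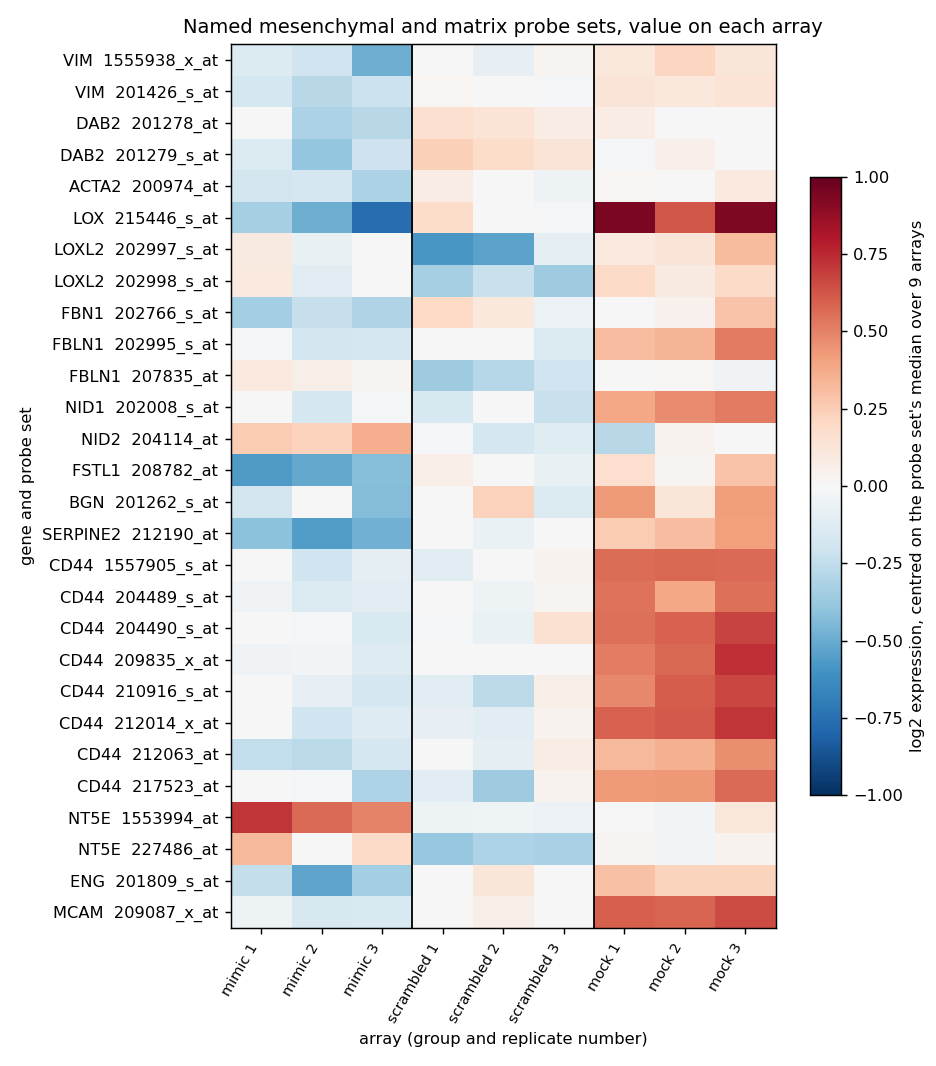
Centred log2 values of 28 probe sets of 16 genes, those of VIM and those called between mimic and scrambled control or differing by at least 0.5 in a comparison, with the 3 mimic arrays at the left, then 3 scrambled and 3 mock arrays. The CD44, MCAM, NID1 and LOX rows are high in mock, the FSTL1, ACTA2 and FBN1 rows are low in the mimic, the NID2 and NT5E 1553994_at rows are high in the mimic, and NT5E 227486_at is low in the scrambled control.

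In all, 15 of the 37 genes had no called probe set in any comparison: S100A4, EMP3, TAGLN, CNN1, CALD1, LOXL1, FBLN5, SPARC, THBS1, THBS2, POSTN, FAP, THY1, AXL and GAS6. Of their 41 probe sets, 13 were in the class of 8 or more, 20 lay from 4 to 8 and 8 lay below 4. Their differences ran from -0.20 for a CALD1 probe set to 0.24 for a THBS1 probe set between mimic and scrambled control, and from -0.18 for THBS1 to 0.22 for CALD1 between mimic and mock. Between scrambled control and mock they ran from -0.31 for THBS1 to 0.17 for CALD1. A p that missed the threshold does not show that these genes were alike in the groups.

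Promoters of VIM and of CD44, MCAM and LOX, which were lower than mock with both small RNAs, are shown with the E-box CACCTG marked. The ZEB repressors bind this E-box, and a part of ZEB in the falls was not tested. ZEB1 fell by 0.99 with the mimic against the scrambled control. Between scrambled control and mock ZEB1 differed by -0.06 (adjusted p = 0.568 over all genes in limma). Each is the 250 bases before a RefSeq transcript start on GRCh38.p14, 5′ to 3′ on the gene's strand, with CACCTG on either strand (CAGGTG on the other) in capitals. LOX has 3 listed windows, of which the most downstream and the most upstream are shown.
VIM (chr10:17227991-17228240, plus strand): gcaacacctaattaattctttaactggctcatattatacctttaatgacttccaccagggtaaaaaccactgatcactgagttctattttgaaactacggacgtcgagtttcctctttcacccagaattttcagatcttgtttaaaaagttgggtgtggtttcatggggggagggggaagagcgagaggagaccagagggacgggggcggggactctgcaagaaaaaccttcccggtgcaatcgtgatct
CD44 (chr11:35138921-35139170, plus strand): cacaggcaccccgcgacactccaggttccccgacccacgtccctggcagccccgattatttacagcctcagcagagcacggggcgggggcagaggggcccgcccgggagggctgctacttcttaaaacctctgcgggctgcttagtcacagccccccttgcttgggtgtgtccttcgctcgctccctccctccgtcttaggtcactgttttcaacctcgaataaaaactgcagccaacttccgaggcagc
MCAM (chr11:119317131-119317380, minus strand): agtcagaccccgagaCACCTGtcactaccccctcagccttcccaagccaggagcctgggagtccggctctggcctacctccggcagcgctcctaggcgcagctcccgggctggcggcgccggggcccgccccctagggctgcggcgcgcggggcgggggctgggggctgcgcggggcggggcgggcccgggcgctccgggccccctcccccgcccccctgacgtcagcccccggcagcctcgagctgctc
LOX (chr5:122077175-122077424, minus strand): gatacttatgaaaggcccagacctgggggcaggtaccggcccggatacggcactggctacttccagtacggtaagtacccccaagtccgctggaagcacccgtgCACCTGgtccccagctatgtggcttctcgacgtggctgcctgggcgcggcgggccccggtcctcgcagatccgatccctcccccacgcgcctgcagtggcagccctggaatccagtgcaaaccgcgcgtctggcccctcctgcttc
LOX (chr5:122078260-122078509, minus strand): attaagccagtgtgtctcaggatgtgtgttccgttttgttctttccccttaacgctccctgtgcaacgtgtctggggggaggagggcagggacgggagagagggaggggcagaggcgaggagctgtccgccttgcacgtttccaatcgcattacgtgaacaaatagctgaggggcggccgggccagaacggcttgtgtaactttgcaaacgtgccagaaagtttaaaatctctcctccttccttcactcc
CACCTG stood once in the MCAM window, 235 bases before the start, and once in the most downstream LOX window, 146 bases before. The second LOX window overlaps that one and holds the same CACCTG, and the most upstream LOX window has none. Over the members 5 of 31 matched genes held it in a window (16.1%: S100A4, LOX, MCAM, AXL and GAS6), beside 5635 of 27305 genes in the whole table (20.6%). A match is a run of letters and no evidence of binding.

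Beside the members, 77 of 79 other mesenchymal and matrix genes were measured. With the mimic against the scrambled control 15 fell (19.5%) and 12 rose (15.6%), where 7.05% and 7.6% of all genes did. With the mimic against mock 24 fell (31.2%) and 8 rose (10.4%), where 10.3% and 8.43% of all genes did. That rise is near the background share. With the scrambled control against mock 15 fell (19.5%) and none rose, where 5.27% and 2.81% of all genes did. In limma 7 were higher at an unadjusted p under 0.05. Past 0.5 on the log2 scale, fibronectin FN1 fell by 1.09 and ZEB1 by 0.99 against the scrambled control. In the same comparison EFEMP1, a fibulin, rose by 1.19, EMP2 by 0.83, the caveolin CAV2 by 0.72, LOXL3 by 0.63 and the surface peptidase MME by 0.56.
Against mock, FN1 fell by 1.49 with the mimic, ZEB1 fell by 1.06 and, past the same size, COL6A3, COL6A1, SERPINH1 and DPYSL3 fell by 0.52 to 0.64, and EFEMP1 rose by 1.02, LOXL3 by 0.70 and CAV2 by 0.51. EMP2 fell by 0.77 in the scrambled control against mock. The gene value of VIM, beside these, differed by -0.23 between mimic and scrambled control.

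Markers of the labelled cell type were read by level class, since centred values hold no level. Of 9 epithelial and endometrial markers, 4 lay in the class of 8 or more, 4 from 4 to 8 and 1, PGR, below 4. Between mimic and scrambled control CDH1 rose by 3.26, EPCAM by 1.06, MUC1 by 0.61, KRT8 by 0.51 and KRT18 by 0.50 (limma, over all genes). PAX8, a factor of the female reproductive epithelium, fell by 0.21 in that comparison (adjusted p = 0.0214) and by 0.55 with the mimic against mock (adjusted p = 5.42e-05). KRT19, ESR1 and PGR differed by -0.03, -0.05 and -0.03 between mimic and scrambled control and did not pass. Of 5 fibroblast genes outside the members, 3 were in the class of 8 or more. Endothelial markers had none of 6 there, and CDH5 and KDR lay below 4. Of 6 leukocyte markers 4 were measured, with ITGAM in the class of 8 or more and PTPRC below 4. Signal over background is not known, so a class does not say whether a gene was detected. In RNA from a whole culture, fewer cells of a type and less RNA per cell cannot be told apart.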

How the data were processed

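Per the labels' protocols, biotin-labelled RNA of Hec50 cells was put on Affymetrix arrays. The authors deposited log2 values for 54675 probe sets in 9 arrays. The summarisation and normalisation are not given in the sources used here. In the values, medians over the arrays are 0, and 48.89% of probe sets hold more than 1 exact 0, which can lower the spread. The level class was recovered from single-precision rounding (97.8% of 6000 simulated probe sets placed).

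Leaving aside 62 controls, 41091 probe sets carry 1 gene symbol, 1801 several and 11721 none. In limma 3.58.1 under R 4.3.3, lmFit and eBayes (two-sided) estimated 1 mean per group from all 9 arrays, with Benjamini-Hochberg adjustment over 54613 probe sets or 19775 genes. Named are VIM and the member probe sets called between mimic and scrambled control or differing by at least 0.5 in any comparison, with values in every array, and the others by counts or their called values. In a simulation of the mimic and scrambled control comparison (3 runs, 200 changed of 54613 probe sets) the fit recovered 67.3% of changes of 0.5 and 95.3% of changes of 1, and 24 of 512 calls were false. Far more probe sets were called in the data, which makes the adjustment there less strict, so these rates do not carry over. Alternatives were a replicate block, the compared groups alone, quantile normalisation, filters on exact 0 values and level, robust eBayes, all probe sets of a gene, and each array left out. The members and lists were chosen with earlier results of these data known. The number of arrays limits the precision. Promoters and microRNAs came from RefSeq tables on GRCh38.p14. Member windows on 1 chromosome were left out, a filter that the count over all genes did not have. After it, 6 of the 37 member genes had no window.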

Additional observations from a re-analysis of the deposited data

How the results depend on the processing

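Of 76 called changes of member probe sets, 43 were called under every alternative run and 33 were lost under 1 or more; of 35 called gene values, 17 held and 18 were lost under 1 or more. None of these called changes reversed direction. Leaving out 1 array in turn gave, over probe sets, 4 to 9 lower and 3 to 6 higher between mimic and scrambled control, 28 to 33 lower and 1 to 4 higher between mimic and mock, and 14 to 21 lower and 0 higher between scrambled control and mock. Over genes it gave 4 to 8 lower and 2 to 3 higher, then 12 to 15 lower and 1 to 2 higher, then 6 to 10 lower and 0 higher. Of all probe sets, 3.06% were lower at the 4 and 3.53% higher at the 3 between mimic and scrambled control. Between mimic and mock 3.66% were higher at the 1, and between scrambled control and mock 1.06% were lower at the 14. At the 4 genes lower, 5.59% or 5.22% of all genes were lower. For the other ends of these ranges the shares over all are not given here. Deviations of same-numbered arrays of different groups had r of -0.235 to 0.154 over 9 pairs, beside -0.216 to 0.363 over 18 pairs of other numbers. The labels do not say whether the numbers pair arrays. So few pairs, with deviations from means of 3 arrays, cannot settle it. A block on the replicate number gave 8 lower and 6 higher, 33 lower and 2 higher, and 18 lower and 0 higher probe sets. In those comparisons the shares over all probe sets were 3.39% and 3.84%, 5.97% and 4.29%, and 1.86% and 0.645%. The compared groups alone gave 2 higher between mimic and mock and 0 higher between scrambled control and mock. Probe sets with at most 1 exact 0, or at a level of 4 or more, also gave 0 higher between scrambled control and mock. Over all probe sets, 4.17% and 0.597% were higher with the compared groups alone, and 3.19% and 1.89% under those filters. The mean of all probe sets of a gene gave 5 genes lower between mimic and scrambled control, where 5.8% of all genes were lower. Mock replicate 3 and mimic replicate 1, whose deviations correlate most (r 0.363, chosen after seeing the data), were also left out together. Then 3 were higher between mimic and scrambled control, where 3.12% of all probe sets were. Between mimic and mock 1 was higher (1 by gene), where 3.64% of all were (6.28% by gene). Between scrambled control and mock 14 were lower and 0 higher, where 1.66% and 0.753% of all were. The causes were not tested. The 3 arrays a group limit what could pass. The simulation, where 67.3% of changes of 0.5 were recovered, does not measure that limit. It changed 200 probe sets, where the data gave 2264 lower and 2466 higher, so its adjustment was stricter.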
